A study of Saccharomyces cerevisiae with 6 samples.

Results

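The pyruvate dehydrogenase complex of budding yeast and the enzymes that switch it on and off were followed in 2 strains by RNA sequencing. The genes were PDA1, PDB1, LAT1 and PDX1 of the complex, the kinase genes PKP1 and PKP2, and the phosphatase genes PTC5 and PTC6. They were taken by name from the deposited transcript table, where each had 1 row, so that they make up 8 of 6416 rows. All 8 passed the filter on low values. Both strains are Saccharomyces cerevisiae BY4741, a laboratory strain, fed galactose as their only carbon source in synthetic complete medium. Their genotypes are labelled expressing NdeltaCit1-DS/AA, here DS/AA with libraries 1 to 3, and expressing NdeltaCit1-DS/AA-H/G, here DS/AA-H/G with libraries 4 to 6. Per the series' title the Cit1 protein is a mutant without its presequence, the leader that takes citrate synthase into mitochondria. What DS/AA and H/G stand for, what drives expression, and whether libraries of a strain are separate cultures is not stated. The p-values therefore set the difference between strains against a spread between libraries that may be technical. In that case they do not extend to other cultures. A strain without a Cit1 mutant is not analysed here.

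Pyruvate dehydrogenase sits in the mitochondrial matrix and turns pyruvate into acetyl-CoA, the substrate that citrate synthase then joins to oxaloacetate. Its E1 enzyme, made of the alpha subunit Pda1 and the beta subunit Pdb1, removes carbon dioxide from pyruvate. E2, encoded by LAT1, carries the acetyl group on lipoic acid, and E3, encoded by LPD1 and shared with other dehydrogenases, reoxidises the lipoic acid while Pdx1 holds E3 to the core. The kinases Pkp1 and Pkp2 add a phosphate to a serine of Pda1, which stops the complex, and the mitochondrial phosphatases Ptc5 and Ptc6 of the PP2C type remove it.

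The point at which the kinases and phosphatases meet is shown first, with the lipoic acid site of E2, because the largest change among these transcripts was in the gene of a kinase that acts on the former. Capitals mark the codon of serine 313 in PDA1 and of lysine 75 in LAT1, counted from the start codon, each in 57 bases of coding sequence from RefSeq R64. The windows lie at chrV:547726-547782 and chrXIV:491718-491774, both on the plus strand.
PDA1: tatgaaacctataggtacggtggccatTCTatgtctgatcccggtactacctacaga
LAT1: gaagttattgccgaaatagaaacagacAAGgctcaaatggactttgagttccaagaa

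Libraries held 30277564 to 32702577 estimated reads, and the row counted as CIT1 took 1.64% to 1.79% of the signal in DS/AA against 3.76% to 3.79% in DS/AA-H/G. The expressed form, the amount of this transcript and any unlabelled difference between cultures cannot be told apart in any result here, nor can fewer cells with a transcript and less of it per cell. Of 5 genes of mating type a 3 fell, of 4 genes of mating type alpha 2 rose, and of 4 galactose genes 2 fell. Over all tested rows 22.1% rose and 19.7% fell. STE2, the receptor gene of mating type a, stood at 17212 ± 229 scaled counts in DS/AA-H/G and 11210 ± 408 in DS/AA. STE3, its counterpart of mating type alpha, which overlaps YKL177W on the opposite strand, stood at 392 ± 14.6 and 487 ± 36.8 in the same order, and the a-pheromone genes MFA1 and MFA2 averaged 2.33 to 13.3 per strain. GAL1, the galactokinase gene, stood at 403191 ± 9394 in DS/AA-H/G and 364648 ± 16827 in DS/AA. The part of these marker differences in the results below was not tested.

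The level of the kinase gene PKP2 was 1.83-fold higher in the DS/AA strain. The E1 beta gene PDB1 fell by 12.6% there and the E2 gene LAT1 fell by 12.3%, and the phosphatase gene PTC6 was 11.7% higher. PDA1, PDX1, PKP1 and PTC5 did not pass the test. So 4 of the 8 passed, 2 that rose and 2 that fell, where these verbs mean a limma adjusted p under 0.05. Of all 6197 rows tested 41.8% passed, 22.1% higher and 19.7% lower, so the share of these genes that passed was near that of the whole table. Their median log2 change was 0.041, beside 0.0073 over all rows. Levels below are scaled estimated counts with the SD over 3 libraries per strain, and changes on the log2(value + 1) scale are positive where DS/AA was higher.

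**Figure D1:**
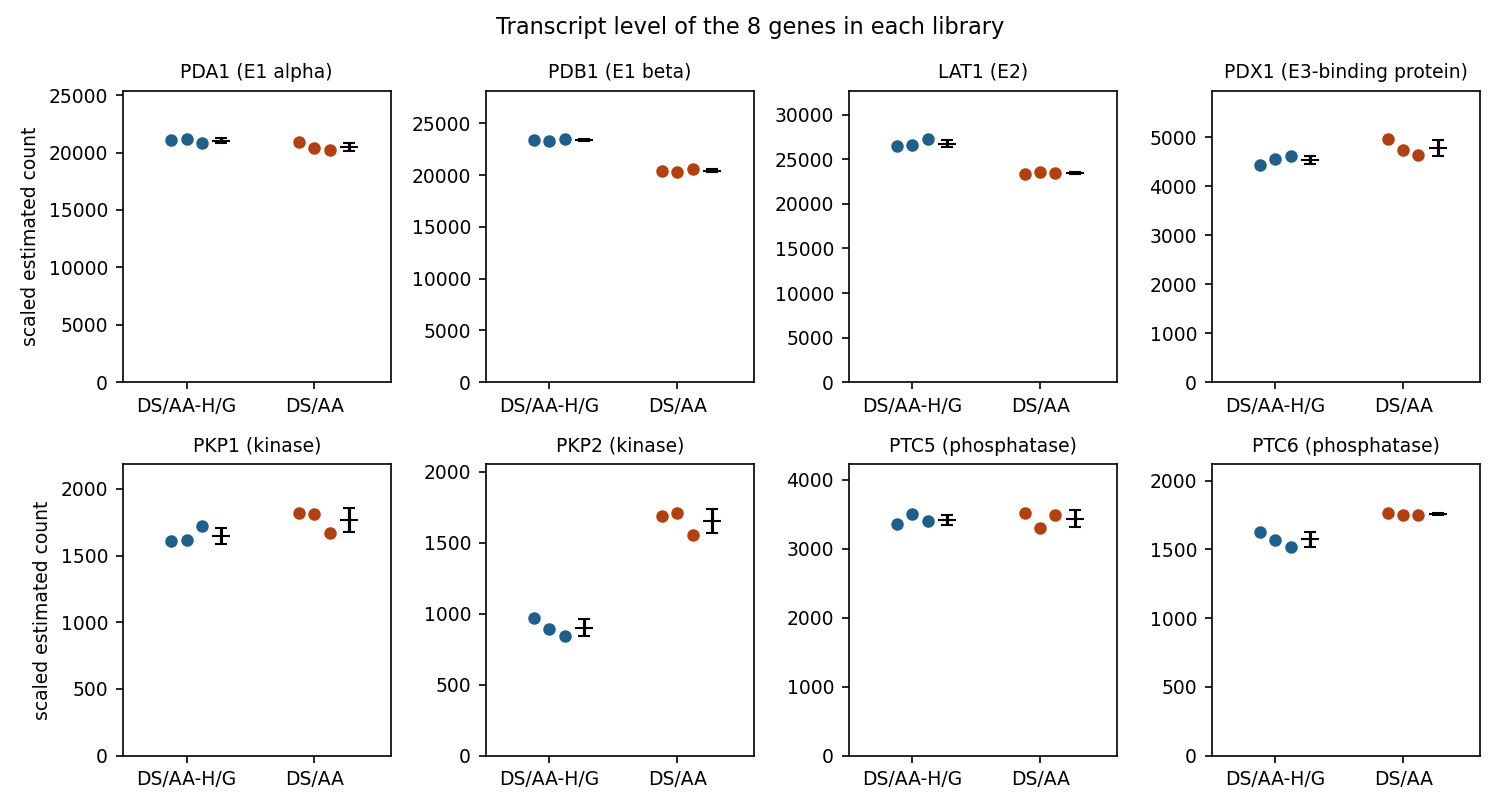
Scaled estimated counts (vertical axes, each from 0) of the 8 genes in the 3 DS/AA-H/G libraries (blue) and the 3 DS/AA libraries (orange), with the mean and SD in black beside the points. PKP2 lies between 846 and 967 in DS/AA-H/G and between 1556 and 1713 in DS/AA, and its fold difference of 1.83 is the largest of the 8.

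Among the subunits of the complex, the E1 alpha gene PDA1 (YER178W, chrV:546817-548079, plus strand, R64) stood at 20888, 20358 and 20253 in libraries 1 to 3 of DS/AA and at 21104, 21172 and 20790 in libraries 4 to 6 of DS/AA-H/G. The ranges overlapped, because DS/AA library 1 was above DS/AA-H/G library 6. The log2 change was -0.036 with a 95% interval of -0.10 to 0.029, and the limma adjusted p was 0.358.

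PDB1 (YBR221C, chrII:665153-666253, minus strand), which encodes the other subunit of E1, stood at 20415, 20312 and 20540 in DS/AA and at 23361, 23270 and 23467 in DS/AA-H/G. Every DS/AA library was below every DS/AA-H/G library, and the gap was many times the spread within a strain. PDB1 fell by 0.19 ± 0.028 (SE) on the log2 scale, with a limma adjusted p of 0.000173.

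LAT1 (YNL071W, chrXIV:491523-492971, plus strand) stood at 23311, 23588 and 23528 in DS/AA and at 26484, 26578 and 27275 in DS/AA-H/G. The strains again did not overlap. LAT1 fell by 0.19 ± 0.029 (SE), with a limma adjusted p of 0.000253. Changes of this size were common in the table, since 37.5% of tested rows had an absolute change as large as that of PDB1 and 38.3% as large as that of LAT1.

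PDX1 (YGR193C, chrVII:884509-885741, minus strand), the gene of the E3-binding protein, stood at 4959, 4733 and 4637 in DS/AA and at 4432, 4561 and 4605 in DS/AA-H/G. The ranges did not overlap, but DS/AA library 3 lay just above DS/AA-H/G library 6. The log2 change of 0.075 (95% interval -0.0085 to 0.16) was not called, with a limma adjusted p of 0.138. With equal column totals PDX1 was called higher (log2 change 0.13, limma adjusted p = 0.015), and without DS/AA library 1 it stood at 0.048.

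LPD1, the gene of E3, was not one of the 8 but completes the complex. It stood at 31622, 31231 and 32228 in DS/AA and at 28440, 28580 and 28613 in DS/AA-H/G, without overlap. LPD1 rose by 0.15 ± 0.029 (SE), with a limma adjusted p of 0.00124, so the subunit genes of the complex included 1 that rose and 2 that fell.

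Of the kinase genes, PKP2 (YGL059W, chrVII:392223-393698, plus strand) stood at 1687, 1713 and 1556 in DS/AA and at 967, 893 and 846 in DS/AA-H/G. The lowest DS/AA library was well above the highest DS/AA-H/G library. The means were 1652 ± 83.9 and 902 ± 61.1 (SD, n = 3 each), and PKP2 rose by 0.87 ± 0.061 (SE) on the log2 scale with a limma adjusted p of 3.64e-07. Of the tested rows 388 (6.26%) had an absolute change as large, and 320 rose at least as much.

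PKP1 (YIL042C, chrIX:275108-276292, minus strand), the other kinase gene, stood at 1823, 1814 and 1666 in DS/AA and at 1612, 1615 and 1720 in DS/AA-H/G. The ranges overlapped through DS/AA library 3 and DS/AA-H/G library 6. The log2 change was 0.10 with a 95% interval of -0.0097 to 0.21, and it was not called (limma adjusted p = 0.133). PKP1 was called with equal column totals (log2 change 0.15, limma adjusted p = 0.0247) and without DS/AA library 3 (log2 change 0.14, limma adjusted p = 0.0459). The kinases had 27.9% identical residues over 365 aligned residues of their translated coding sequences. No run of 50 bases of any of the 8 genes occurred in another coding sequence, and none of the 8 overlapped another row of the table.

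The phosphatase gene PTC5 (YOR090C, chrXV:491123-492841, minus strand) stood at 3527, 3306 and 3487 in DS/AA and at 3362, 3504 and 3399 in DS/AA-H/G. The strains were interleaved. The log2 change of 0.0073 had a 95% interval of -0.079 to 0.094 and a limma adjusted p of 0.897.

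PTC6 (YCR079W, chrIII:252845-254173, plus strand) stood at 1768, 1750 and 1753 in DS/AA and at 1630, 1569 and 1521 in DS/AA-H/G. The strains did not overlap, and the DS/AA libraries lay closer together than those of DS/AA-H/G. PTC6 rose by 0.16 ± 0.043 (SE), with a limma adjusted p of 0.0113, but it was not called after quantile normalization (log2 change 0.10, limma adjusted p = 0.0723).

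The libraries of the strains did not overlap for 5 of the 8 genes, 3 higher and 2 lower in DS/AA. Of all tested rows 52.7% did not overlap, 27.8% higher and 25% lower. An exact two-sided permutation test on each gene gave p = 0.1 for those 5, the smallest that 3 against 3 libraries allow. Libraries without overlap always give this value, so it adds nothing to the separation. In the authors' deposited table the rows marked at q under 0.05 were the same 4 genes, PKP2 with q = 3.52e-37, PDB1 with q = 8.02e-06, LAT1 with q = 1.93e-05 and PTC6 with q = 0.00822. Estimated reads per library were 807 to 1701 for PKP2 and 22918 to 27058 for LAT1, the least and the most covered of the 8. The spread between libraries of a strain was 5.08% and 6.77% of the mean for PKP2, where counting error alone gives 2.79%.

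**Figure D2:**
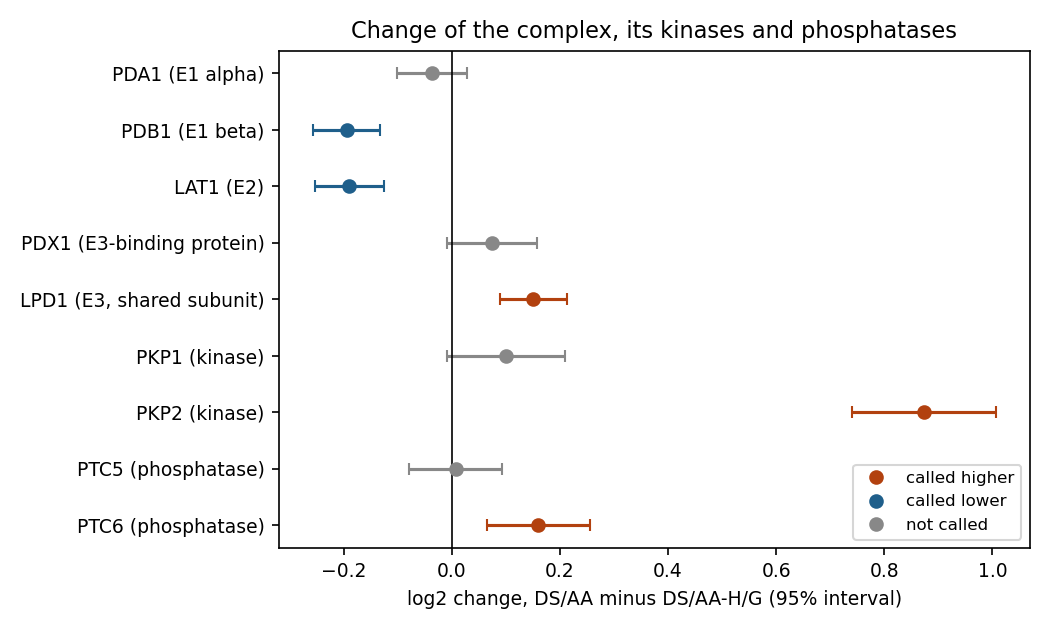
Log2 change of the 8 genes and LPD1 (horizontal axis, DS/AA minus DS/AA-H/G) with 95% intervals from limma, coloured by call at a limma adjusted p under 0.05. PKP2 stands at 0.87, PTC6 and LPD1 at 0.16 and 0.15, PDB1 and LAT1 both at -0.19, and the other intervals include 0.

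Per kilobase of coding length, the E1 and E2 genes were highest, PDX1 was intermediate and the kinase and phosphatase genes were lowest. PDB1 led, at 18549 ± 104 scaled counts per kb in DS/AA against 21223 ± 89.6 in DS/AA-H/G, the order in which the values below are given. LAT1 (16201 ± 101 and 18481 ± 298 per kb) and PDA1 (16231 ± 269 and 16644 ± 161 per kb) followed and did not differ beyond their spread in DS/AA. These 3 were above 95.4% to 96.4% of tested rows. PDX1 came next at 3874 ± 134 and 3676 ± 72.8 per kb, so that PDA1 was 4.35-fold above it over both strains.

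The regulators were lower still, in the order PTC5, PKP1, PTC6 and PKP2, and neighbours in this order did not overlap in either strain. PTC5 stood at 2001 ± 68.6 and 1990.5 ± 42.6 per kb, or 8.24-fold below PDA1 over both strains. PKP1 stood at 1492 ± 74.1 and 1392 ± 51.8 per kb, and PTC6 at 1322 ± 7.17 and 1184 ± 41.1. PKP2 was the lowest in both strains, at 1119 ± 56.9 and 611 ± 41.4 per kb, and its rise narrowed the gap to PTC6 in DS/AA. The row spans used as length hold the coding sequence only.

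Ratios of levels per kb within a library, from the values as deposited, do not change when a library is multiplied by 1 factor, and they are given as a description. PDB1 to PDA1 was 1.12, 1.14 and 1.16 in the DS/AA libraries against 1.27, 1.26 and 1.29 in those of DS/AA-H/G. LAT1 to PDA1 was 0.973, 1.01 and 1.01 in DS/AA against 1.09, 1.09 and 1.14 in DS/AA-H/G. Both ratios were lower in every DS/AA library, so in DS/AA the E1 beta and E2 transcripts were closer per kb to that of E1 alpha.

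PDX1 to LAT1, the binding protein against the core it sits on, was 0.250, 0.236 and 0.232 in DS/AA against 0.197, 0.202 and 0.198 in DS/AA-H/G. LPD1 to PDA1 was 1.30 ± 0.034 in DS/AA against 1.14 ± 0.013 in DS/AA-H/G. The transcripts for E3 and its binding protein thus stood higher relative to the E1 alpha or E2 transcript in every DS/AA library.

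For the regulators, PKP2 to PKP1 was 0.743, 0.758 and 0.750 in DS/AA against 0.482, 0.444 and 0.395 in DS/AA-H/G. PKP1 was the more abundant kinase transcript in all 6 libraries, but by a smaller margin in DS/AA. PTC6 to PTC5 was 0.648, 0.685 and 0.650 in DS/AA against 0.627, 0.579 and 0.579 in DS/AA-H/G. PKP2 to PDA1, the kinase against its substrate, was 0.069 ± 0.0031 in DS/AA against 0.037 ± 0.0023 in DS/AA-H/G. The sum of both kinase genes against the sum of both phosphatase genes, per kb, was 0.735 to 0.831 in DS/AA against 0.611 to 0.648 in DS/AA-H/G. These are transcripts only, and neither protein amount nor phosphorylation of Pda1 was measured.

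**Figure D3:**
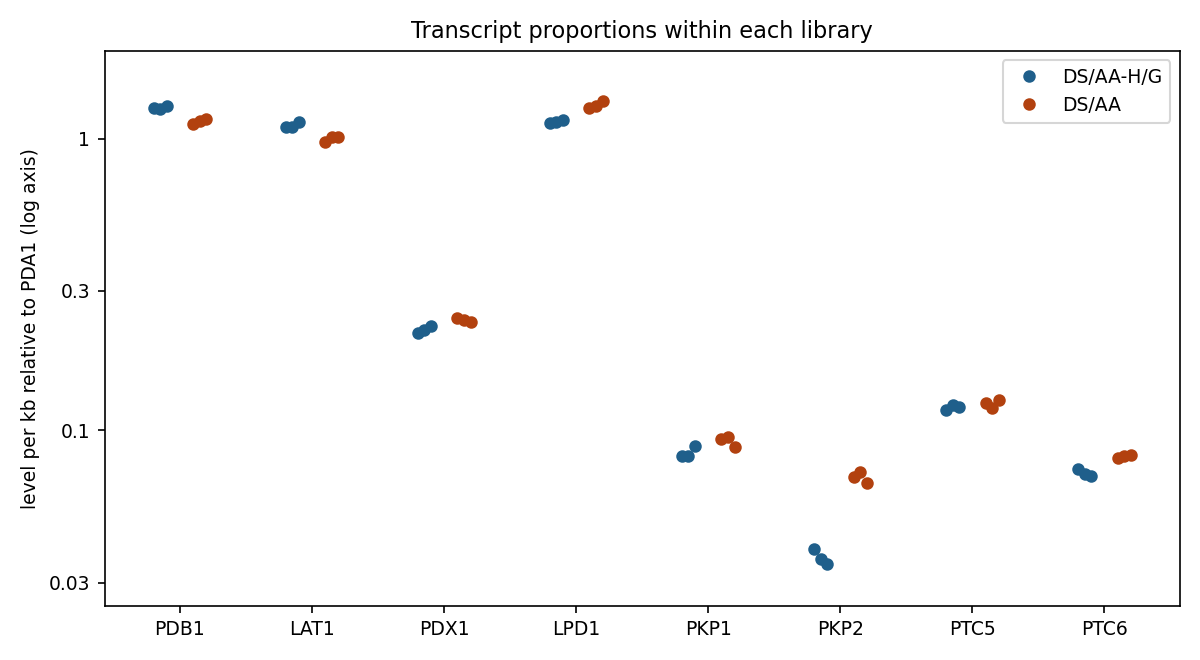
Level per kb relative to PDA1 in the same library (vertical axis, logarithmic) for PDB1, LAT1, PDX1, LPD1, both kinase genes and both phosphatase genes, with DS/AA-H/G in blue and DS/AA in orange, 1 point per library. PKP2 moves from 0.037 to 0.069 on average, PDB1 and LAT1 move down, and PKP1 and PTC5 overlap.

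The bases around each start codon, 250 before and 50 after, were searched on both strands for 4 short motifs. The letters TGACTC, bound by the amino acid starvation factor Gcn4, were found at 3 of the 8 genes, PDA1, PKP1 and PKP2, and in 7.98% of 6001 windows of this length in the genome. CCAAT, bound by the Hap complex of respiratory genes, was found at 5 of the 8 and in 43.3% of windows. At PDB1 it lay only within the coding sequence, and at PDA1 only across the start of the coding sequence and within it. GTCAC, bound by the Rtg factors, was found at LAT1 and in 26.4% of windows, and AGGGG, the stress element, at PDA1 and PTC6 and in 21.6%. A match is a run of letters and not a shown binding site. The matches at the kinase genes are printed because both genes hold TGACTC and CCAAT letters. PKP2 rose and PKP1 was not called, and any part of these letters in that was not tested. Capitals mark the motif, here always on the opposite strand and so written as GAGTCA or ATTGG, and positions count back from -1, the base before the start codon. The windows lie at chrVII:392061-392086, chrVII:392141-392165 and chrVII:392183-392207 (plus strand) and at chrIX:276328-276353 and chrIX:276335-276359 (minus strand).
PKP2, TGACTC from -152: actatgttttGAGTCAtccaaacttt
PKP2, CCAAT from -72: ggatacttgcATTGGaacccagaaa
PKP2, CCAAT from -30: atcgtgagagATTGGtcaatggata
PKP1, TGACTC from -51: gaacattggtGAGTCAagaccataac
PKP1, CCAAT from -57: aactgagaacATTGGtgagtcaaga
The PKP1 windows overlap, and its CCAAT and TGACTC letters lie next to each other with 1 base between them.

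The genes around the complex were described from lists of the pathway. A list of 16 genes held LPD1 and genes that supply pyruvate, carry it into mitochondria or lead it along other routes. Of the 16, 8 rose, LPD1 among them, and 3 fell, beside 22.1% and 19.7% of all tested rows. The list's median log2 change was 0.15 beside the 0.0073 of all rows. The mitochondrial pyruvate carrier genes were not called. MPC1, a subunit in all forms of the carrier, stood at 615 ± 41.2 in DS/AA against 555 ± 59.0 in DS/AA-H/G (log2 change 0.15, limma adjusted p = 0.195), with 0.061 without DS/AA-H/G library 5 and up to 0.21 without another library. MPC2, the partner during fermentation, stood at 3057 ± 32.3 and 2869 ± 28.1 (log2 change 0.091, limma adjusted p = 0.0583), and it was called under 4 of 15 alternatives. MPC3, the partner during respiration, stood at 732 ± 125 and 693 ± 61.0 (log2 change 0.069, limma adjusted p = 0.661).

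The largest rise of this list was that of PDC6, a minor pyruvate decarboxylase gene, at 422, 473 and 351 in DS/AA against 75.4, 88.4 and 81.7 in DS/AA-H/G. That is a 5.07-fold difference (log2 change 2.32, limma adjusted p = 6.68e-08). The acetaldehyde dehydrogenase genes ALD6 (cytosolic) and ALD5 (mitochondrial) rose by 0.68 and 0.63. ALD6 feeds the bypass by which yeast makes acetyl-CoA without pyruvate dehydrogenase. PYC2, a pyruvate carboxylase gene, rose by 0.45. The 3 genes that fell, named after their values were seen, were CDC19, the main pyruvate kinase gene, at -0.086, PDC5, a pyruvate decarboxylase gene, at -0.41, and PYC1, a pyruvate carboxylase gene, at -0.20. PYC1 and PYC2 share a run of 200 bases and PDC5 shares 65 with PDC1, so these values are uncertain, and CDC19 overlaps YAL037C-B on the opposite strand. The call of CDC19 held under 9 of 15 alternatives and that of PYC1 under 13 of 15. CDC19 was not called with equal column totals (log2 change -0.031, limma adjusted p = 0.363) or with equal totals without CIT1 (-0.062, limma adjusted p = 0.0773). Its call was also lost under limma without trend or robust moderation (adjusted p = 0.0582). Leaving out DS/AA library 3, or DS/AA-H/G library 5 or 6, removed the call too (limma adjusted p = 0.0919, 0.0918 and 0.0853).

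**Figure D4:**
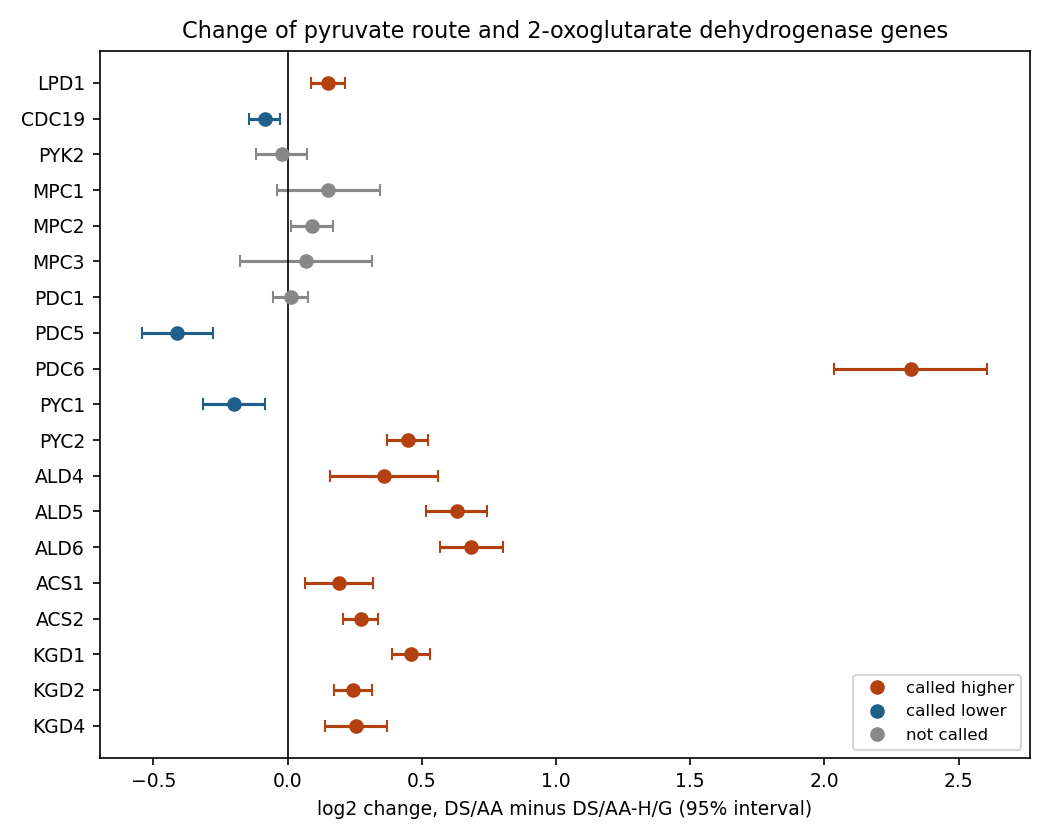
Log2 change (horizontal axis, DS/AA minus DS/AA-H/G) with 95% intervals from limma, coloured by call. Shown are the 16 listed pyruvate supply and route genes, LPD1 among them, and the 3 genes of 2-oxoglutarate dehydrogenase. PDC6 stands at 2.32, PDC5 at -0.41, and the 3 carrier genes are not called.

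2-Oxoglutarate dehydrogenase is the sister complex in the tricarboxylic acid cycle and uses the same E3, Lpd1. All 3 of its genes rose, KGD1 (E1) by 0.46, KGD2 (E2) by 0.24 and KGD4 (a subunit that links E3 to the core) by 0.25. Of all tested rows 22.1% rose. KGD1 stood at 18643 ± 414 in DS/AA against 13559 ± 229 in DS/AA-H/G (limma adjusted p = 3.76e-07). The E2 genes of both complexes, LAT1 and KGD2, have 34.1% identical residues over 417 aligned residues of their translations, and they were called in opposite directions. The difference between these changes was not tested.

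Of 10 genes that supply cofactors of the complex, 0 were called by limma (median log2 change 0.020), beside 41.8% of all tested rows. An unadjusted limma p under 0.05 was found for 3055 of the 6197 tested rows and for 3 of the 10. These were TPC1, the mitochondrial thiamine pyrophosphate carrier gene, at -0.17, LIP5, the lipoate synthase gene, at 0.099, and THI80, the thiamine pyrophosphokinase gene, at -0.14. Under limma without trend or robust moderation 1 of the 10, TPC1, was called lower (adjusted p = 0.0374). After quantile normalization TPC1 stood at -0.40 and THI80 at -0.27, and both were called lower (limma adjusted p = 0.00137 and 0.00686). LIP5 was called higher with equal column totals (0.15, limma adjusted p = 0.0113), with equal totals without CIT1 (0.12, limma adjusted p = 0.0343) and without DS/AA library 2 (0.13, limma adjusted p = 0.0455). YIA6, a mitochondrial NAD carrier gene, stood at 0.11 (limma adjusted p = 0.35), and at 0.032 to 0.20 when each library was left out.

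The phosphatases belong to the PTC family, whose 5 other genes had a median log2 change of -0.080. Of these 5, 1 fell, beside 19.7% of all tested rows. That gene was PTC2, a negative regulator of stress and damage signalling, at 7540 ± 392 in DS/AA against 8526 ± 61.5 in DS/AA-H/G (log2 change -0.18, limma adjusted p = 0.00395), and it overlaps YER088C-A on the same strand and is uncertain. PTC3, PTC4 and PTC1 stood at -0.080, -0.095 and 0.068 and were not called. The change of PTC6, at 0.16, was the only rise called among the 7 genes of the family, 5 of which were not called as deposited.

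The genes most like PKP2 and PDA1 were sought among 5400 rows with a mean of at least 100, by the distance between the 6 log2 values after each was centred on its own mean. Nearest to PKP2 were SMP1, a transcription factor gene (distance 0.0926), PUT4, a proline permease gene (0.112), PDE1, a cyclic AMP phosphodiesterase gene (0.124), CIT2, the peroxisomal citrate synthase gene (0.13), and YPS1, a cell surface protease gene (0.134). Their log2 changes were 0.81 to 0.93. Nearest to PDA1 were NUP116, DOT6, LAP2, PRP8 and BNI5, at distances of 0.0203 to 0.0276 and log2 changes of -0.049 to -0.020. With 6 libraries in 2 strains, likeness reflects mainly the size of the strain difference.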

How the data were processed

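RNA from 3 DS/AA and 3 DS/AA-H/G samples was sequenced from NEBNext Ultra II Directional libraries, per the labels' protocols. The submitters' processing notes name Salmon 1.2.1, cutadapt 1.18, bcl2fastq 2, R 3.5.1 and build R64, without a method of scaling. The deposited values are a signal: low values are mostly multiples of 1 step per library, so they were read as estimated counts that the authors divided by 1 factor per library. The authors' deposited table also gives a log2 ratio, q-values and p-values, and a rank as a score that was not used. Their test is not stated.

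The 6197 rows that reached 1 in 3 or more libraries were tested. After adding 1, log2 values went into limma 3.58.1 (R 4.3.3; mean trend, robust moderation), and p-values were adjusted by Benjamini-Hochberg over all tested rows. The plan named a count model in place of limma if the values were counts or estimated counts. The values were already scaled, and only 36.5% to 44.0% of those above 0 were whole multiples of the step (within 0.01). Limma was therefore kept and no count model was applied, although estimated counts need not be whole. The procedure was also run on simulated counts with equal scaling and independent libraries, which cannot show how it handles unequal scaling or technical replicates. Of 6416 rows, 5802 matched RefSeq R64 by identifier and 5793 had the same start and end. Windows and translations were read from that genome with Biopython 1.88. Identity used BLOSUM62 with gap costs of 11 and 1.

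The genes and lists were chosen with earlier results of these data known. Named list genes were LPD1, the 3 carrier genes and, per list, up to 4 more with the smallest p. Likeness was fixed for PDA1 and the gene with the largest change. Pseudocounts, filters, scalings, the moderation and leaving out each library were tried as 15 alternatives.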

Additional observations from a re-analysis of the deposited data

How the results depend on the processing

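Depth limits little here, since each of the 8 genes had at least 807 estimated reads in every library. PKP2, PDB1 and LAT1 kept their direction and call under all 15 alternatives, with log2 changes of 0.78 to 0.93, -0.20 to -0.14 and -0.20 to -0.13. Both the scaling and the libraries included moved calls or signs among the smaller values, and the cause was not tested. With equal column totals 4 of the 8 genes were called higher, PDX1 at 0.13 and PKP1 at 0.15 among them, and PDA1 stood at 0.018. After quantile normalization 1 was called higher, PTC6 at 0.10 was not called, and PTC5 stood at -0.019. Over all rows 1368 were called higher and 1222 lower as deposited, 1841 and 747 with equal column totals, and 1034 and 1778 after quantile normalization. Leaving out each library gave -0.011 to 0.036 for PTC5, 0.077 to 0.14 for PKP1 and 0.048 to 0.096 for PDX1, 2 to 3 of the 8 genes called higher, and 0 to 1 cofactor genes called higher. Of the lists, pyruvate route genes called lower were 1 with equal column totals and 1 under limma without trend or robust moderation. Cofactor genes called higher were 1 with equal column totals and 1 with equal totals without CIT1, and those called lower were 3 after quantile normalization and 1 under limma without trend or robust moderation. After quantile normalization 2 of the 5 other PTC genes were called lower, and the uncalled genes MPC1, MPC3, YIA6 and PTC1 changed sign, at -0.035, -0.094, -0.039 and -0.017. MPC3 ranged from -0.067 to 0.14 when libraries were left out. No paired analysis was possible because the strains share no replicate number.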

Other observations

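The genes next to PKP2 on chromosome VII did not share its rise. YBP2, which ends 232 bases upstream on the same strand, stood at a log2 change of -0.051 (limma adjusted p = 0.476), and RAD6, the ubiquitin-conjugating enzyme gene 287 bases downstream, fell by 0.15 (limma adjusted p = 0.0193). PDB1 lies between YBR220C, 475 bases downstream, which fell by 0.33 (limma adjusted p = 1.12e-05), and PCS60, a peroxisomal enzyme gene 466 bases upstream, which rose by 0.24 (limma adjusted p = 0.000542). Next to LAT1, RNH201 and TOM7 were not called, at -0.13 and 0.039. Next to PTC6, the mRNA decay gene PAT1, 216 bases upstream on the opposite strand, fell by 0.090 (limma adjusted p = 0.0427), and SRB8 stood at 0.049 and was not called.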
